A study of Mus musculus with 6 samples.

Results

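The linker and replacement histone genes are 9 genes of the mouse, H1fx, H1f0, H3f3a, H3f3b, H2afx, H2afz, H2afv, H2afy and H2afj, picked by name out of the 22740 protein-coding genes of one count table. All 9 were among the 11921 genes that passed the filter on low counts and were tested. The libraries come from B16-F3, a mouse melanoma cell line kept in culture, whose cells were sorted by flow cytometry on the light scatter of their melanin into a high-pigmented (HPC) and a low-pigmented (LPC) population. There are 3 libraries of each, both groups are the same line with no labelled agent or genetic change, and no label tells if replicates were separate cultures or sorts, so a p-value measures just the spread among these 6 libraries, which may be technical. The 9 genes were chosen with the HPC against LPC results known, so their levels in that contrast are given as a description, and counts of members called there are printed beside the share of all genes called and support nothing.

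Histones package DNA into nucleosomes. Linker histones of the H1 family sit where DNA enters and leaves the nucleosome and help compact the chromatin fibre. Replacement histones are placed into chromatin throughout the cell cycle and take the place of the standard core histones, whose genes are transcribed in S phase. Transcripts of the replacement genes mostly end in a poly(A) tail, whereas most transcripts of the S phase genes end in a short stem-loop without one. In melanoma, loss of macroH2A has been linked to malignant progression and the H2A.Z product of H2afv to proliferation.

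The libraries were made with a 3' end kit, which primes on poly(A) tails and gives about 1 read per captured transcript, so levels are in CPM, counts scaled to a common library size, with no division by transcript length. Total counts ran from 14695822 to 22186743 per library. The labelled cell type was checked on its markers. The 8 pigment cell markers, Pmel, Mlana, Dct, Tyrp1, Tyr, Mitf, Sox10 and Mc1r, summed to between 32830 and 37432 CPM in every library. This sum comes mostly from Dct, Pmel and Tyrp1 and hides Tyr. In replicate order, Tyr was at 908, 855 and 994 CPM in the HPC libraries and 261, 62.2 and 238 CPM in the LPC libraries. The 4 keratinocyte markers were at 0 in all libraries, the 5 endothelial markers summed to at most 0.36 CPM and the 5 immune cell markers analysed to at most 2.86 CPM, with Ptprc, the pan-leukocyte marker, at 0. The 6 fibroblast markers summed to 19.2 to 28.2 CPM for HPC and 17.5 to 34.3 CPM for LPC, nearly all of it from Col1a2, Pdgfra and Col1a1.

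The promoters of the 3 genes whose groups did not overlap between HPC and LPC are shown first. This choice follows their levels described below and supports no difference between the groups. Each is the 250 bases before the gene's start as RefSeq places it on GRCm38.p6, 5′ to 3′ on the gene's own strand, and 8 of the 9 genes had an entry, H2afx being the exception. GENCODE M21, whose coordinates are given for the genes below, places some starts elsewhere. The RefSeq start of H1fx is 155 bases downstream of GENCODE's, so most of that window, with its GC box, lies inside the GENCODE gene, and that of H1f0 is 238 bases upstream. For H3f3b the RefSeq start is that of at least 1 of 4 GENCODE transcripts. The outermost begins 3458 bases further upstream, so the window lies inside the gene's outer bounds. Capitals mark matches, on either strand, to any of 6 motifs: CCAAT, the TATA box TATAAA, the GC box GGGCGG, the cAMP response element TGACGTCA, the E-box CACGTG and the H1 box AAACACA.
H1fx promoter, chr6:87981483-87981732, minus strand: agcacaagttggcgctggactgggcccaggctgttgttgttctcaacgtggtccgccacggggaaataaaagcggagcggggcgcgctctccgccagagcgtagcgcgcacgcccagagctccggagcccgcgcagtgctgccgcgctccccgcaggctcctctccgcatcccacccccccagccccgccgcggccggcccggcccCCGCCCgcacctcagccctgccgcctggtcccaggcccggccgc
H1f0 promoter, chr15:79027962-79028211, plus strand: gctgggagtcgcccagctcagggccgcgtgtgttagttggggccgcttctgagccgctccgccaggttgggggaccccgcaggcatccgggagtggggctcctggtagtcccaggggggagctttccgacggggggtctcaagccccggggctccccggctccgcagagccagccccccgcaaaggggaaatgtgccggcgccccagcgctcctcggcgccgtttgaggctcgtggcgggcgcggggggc
H3f3b promoter, chr11:116024505-116024754, minus strand: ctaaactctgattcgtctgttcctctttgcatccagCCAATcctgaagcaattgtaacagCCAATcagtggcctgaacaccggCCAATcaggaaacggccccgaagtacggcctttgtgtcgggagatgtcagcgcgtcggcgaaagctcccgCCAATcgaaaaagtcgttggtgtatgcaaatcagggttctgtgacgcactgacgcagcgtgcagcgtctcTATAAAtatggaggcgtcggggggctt

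The windows were unlike each other. That of H3f3b held 4 CCAAT matches, whose first bases lie at -214, -190, -167 and -97 from the start, and a TATA box at -27, and its GC content was 54.0%. H1fx had a single GC box match at -44 in a window of 75.2% GC, and H1f0, at 74.4% GC, had no match to any of the 6. Over 32851 windows of the same length, 33.8% held CCAAT, 12.4% the TATA box and 32.7% the GC box, and the median GC content was 52.4%. Among the other members, H2afv had 4 CCAAT matches, H2afj 3, H2afz 2 and H3f3a 1, while H2afy had none. H2afz alone among the 8 held the E-box, which 6.02% of all windows hold, and H3f3a alone the H1 box, which 6.25% hold. None of the 8 held the cAMP response element, which 1.55% of all windows hold. These are matches of letters in 1 window per gene, not sites shown to be bound.

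The gene models place H1fx, H1f0 and H2afx in 1 exon each, like the S phase histone genes, and H2afj in 1 or 2. H3f3a, H3f3b, H2afz and H2afv have 4 to 6 exons and H2afy has 9. The histone stem-loop was sought as a match to a fixed consensus pattern in annotated transcripts. A variant loop or an incomplete transcript model would be missed. H2afx was the only member with a match, printed whole in capitals. The match is followed by 822 bases of transcript, and H2afx also has a poly(A) signal hexamer within the last 50 bases.
H2afx stem-loop: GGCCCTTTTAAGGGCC

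By level, H1f0 and H3f3b stood first, with means over the 6 libraries of 642 and 483 CPM. H2afy followed at 138 CPM, then H2afj at 76.0, H2afv at 66.1, H2afx at 49.4, H3f3a at 36.2, H2afz at 18.4 and H1fx at 5.02 CPM. The ranges of neighbours in this order overlapped for H1f0 and H3f3b, for H2afj and H2afv, for H2afx and H3f3a, and for H2afz and H1fx, while the other 4 steps were free of overlap. Within libraries the order was firmer, since H1f0 was above H3f3b and H2afz above H1fx in all 6, H2afj above H2afv in 5 and H2afx above H3f3a in 5. The 9 genes together took 1167 to 1473 CPM in the HPC libraries and 1542 to 1947 CPM in the LPC libraries.

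**Figure D1:**
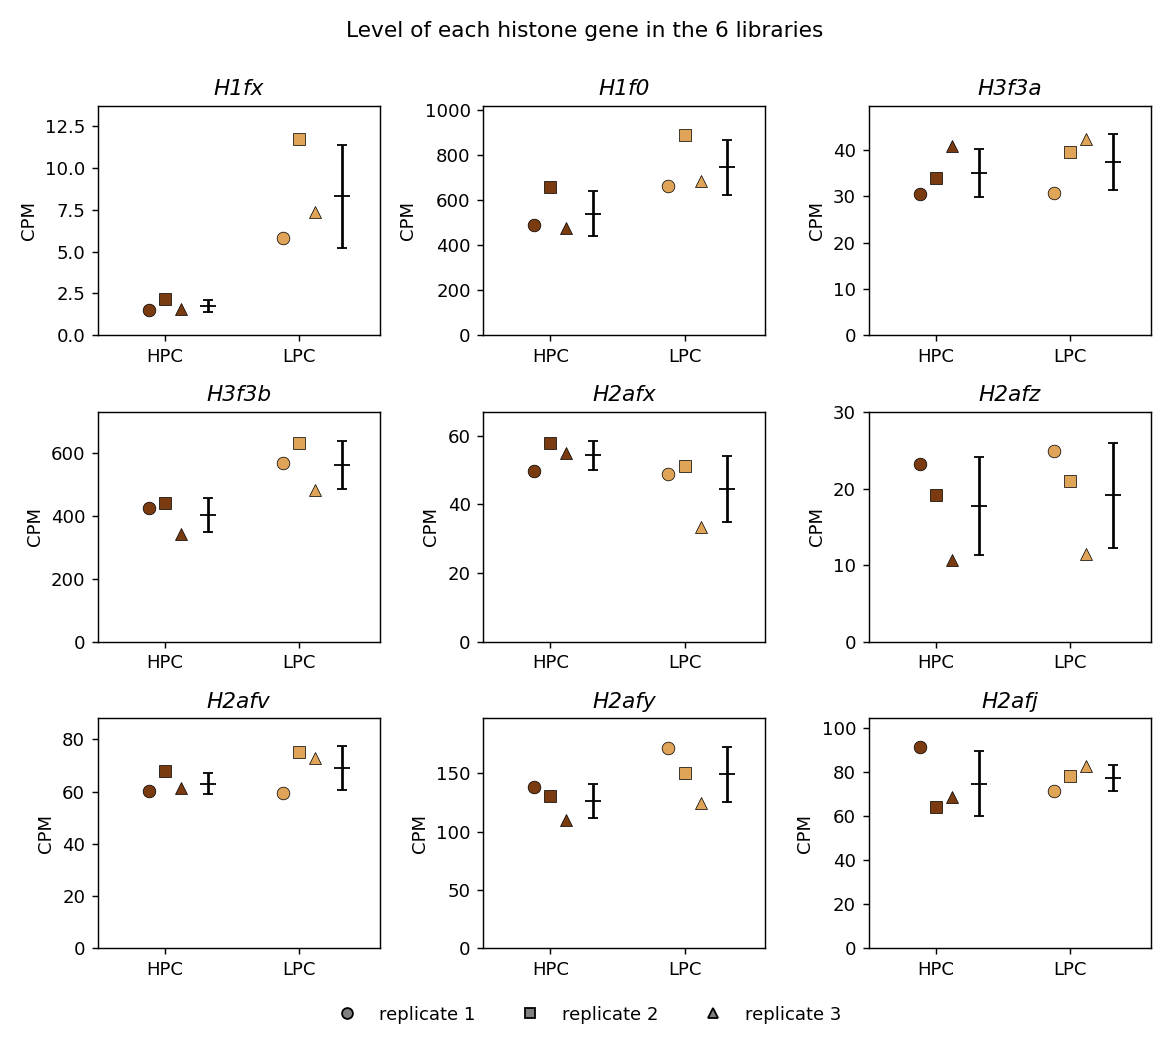
Level of each of the 9 histone genes in CPM (y axis, from 0) in the 3 HPC and 3 LPC libraries, with symbols for the replicate number and bars for the mean ± SD. H1fx, H1f0 and H3f3b are lower in every HPC library than in any LPC library, and H2afz is lowest in replicate 3 of both groups.

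H1fx encodes the most divergent of the somatic linker histones. Levels, in replicate order, were 1.52, 2.16 and 1.58 CPM in the HPC libraries and 5.80, 11.7 and 7.37 CPM in the LPC libraries, from 27, 48 and 31 reads and 86, 222 and 110 reads. Every HPC library lay below every LPC library. The means were 1.75 ± 0.36 and 8.30 ± 3.07 CPM (SD, n = 3 each), and the fitted level was 4.72-fold lower in HPC (-2.24 ± 0.33 as log2 fold change ± SE). The 3 differences between equally numbered libraries were -1.86, -2.38 and -2.15 on the log2 scale. In such bulk libraries, fewer cells with a transcript and less of it per cell cannot be told apart. H1fx is the rarest member, so its counting error is the largest of the 9. It lies at 87980421 to 87981637 of chromosome 6 (minus strand, GENCODE M21, GRCm38) and overlaps the antisense gene Gm5577. Whether counting used strand is not given in the sources used here, so its count is uncertain to that extent.

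H1f0 encodes the replacement linker histone H1.0, which accumulates in differentiated cells that have stopped dividing. Levels, in replicate order, were 487, 655 and 476 CPM in the HPC libraries and 661, 886 and 686 CPM in the LPC libraries. The groups did not overlap, but the highest HPC library and the lowest LPC library were only 655 and 661 CPM. The means were 539 ± 101 and 744 ± 123 CPM, 1.38-fold lower in HPC (-0.46 ± 0.17 as log2 fold change ± SE). In both groups replicate 2 stood highest, and the 3 differences between equally numbered libraries were alike, at -0.44, -0.44 and -0.53. H1f0 lies at 79028450 to 79030504 of chromosome 15 (plus strand) and overlaps the antisense gene Gm49544.

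Within the H1 family, H1f0 supplied most of the counts, 92.0% ± 4.51 in HPC and 94.8% ± 0.72 in LPC of the reads of all 8 H1 genes analysed (n = 3 each). H1fx supplied 0.30% ± 0.024 in HPC and 1.04% ± 0.21 in LPC. The remainder was mostly Hist1h1c, an S phase type H1 gene whose annotated transcripts also hold a poly(A) hexamer, at 7.39% ± 4.44 and 3.92% ± 0.71. Hist1h1c was at 67.1 CPM in HPC replicate 1 and between 21.7 and 35.7 CPM in the other 5 libraries, and did not pass the test (edgeR quasi-likelihood test, adjusted p = 0.78). HPC replicate 1 also had the most counts from mitochondrial genes, 3.21% where the other 5 had 2.07% to 2.56%, and the part of this in the Hist1h1c level was not tested. The sum over all H1 genes was 584 ± 86.6 CPM for HPC and 785 ± 130 CPM for LPC. The H1 genes other than H1f0 and H1fx are Hist1 genes, whose transcripts mostly lack the poly(A) tail that these libraries prime on. The H1 shares and sums are therefore of captured reads, and not of all H1 transcripts in the cells.

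H3f3a and H3f3b encode the same protein, the replacement histone H3.3, from genes with different promoters and untranslated regions. H3f3b levels, in replicate order, were 426, 442 and 343 CPM in the HPC libraries and 569, 634 and 482 CPM in the LPC libraries. All HPC libraries lay below all LPC libraries. The means were 404 ± 53.2 and 561 ± 76.4 CPM, 1.39-fold lower in HPC (-0.48 ± 0.15 as log2 fold change ± SE), and the 3 differences between equally numbered libraries were -0.42, -0.52 and -0.49. H3f3b lies at 116021912 to 116027962 of chromosome 11 (minus strand) with no overlapping gene.

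H3f3a levels, in replicate order, were 30.4, 33.9 and 40.7 CPM in the HPC libraries and 30.6, 39.5 and 42.2 CPM in the LPC libraries. Here the groups overlapped almost wholly, and the log2 fold change was -0.10 (SE 0.17). H3f3b therefore supplied 91.9% ± 2.16 of H3.3 counts in HPC and 93.7% ± 1.54 in LPC, and the sum of both was 439 ± 48.6 and 599 ± 74.7 CPM. The level of H3f3a is uncertain. Of the 50-base windows in the last 300 bases of its annotated transcripts, 34.3% occur unchanged in transcripts of 39 other genes, 38 of them pseudogenes, against 0 for H3f3b. A read that lies wholly inside such a window cannot be placed at a single gene, while a longer read might be. How such reads were counted is not given in the sources used here. H3f3a (chromosome 1, 180800832 to 180813943, minus strand) also overlaps the antisense gene H3f3aos.

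H2afx encodes H2A.X, which is phosphorylated around DNA breaks and marks them for repair. It was the only member with a higher fitted level in HPC, under all 4 scalings run on the 6 libraries, with levels in replicate order of 49.8, 58.0 and 55.1 CPM in the HPC libraries against 48.8, 51.2 and 33.3 CPM in the LPC libraries. The groups overlapped, LPC replicate 3 stood apart as the lowest, and the log2 fold change was 0.29 (SE 0.17). Without LPC replicate 3 it was 0.12. That library was also lowest for the lists of DNA replication and mitosis genes, whose medians stood at -0.61 and -0.77 as log2 deviations from the 6-library mean. In the other 5 libraries these medians ran from -0.11 to 0.41 and from -0.16 to 0.51. Their part in the H2afx level was not tested. Any H2afx transcripts that end at the stem-loop, without a poly(A) tail, would be missed, so these levels cover its polyadenylated form only. H2afx lies at 44334694 to 44336077 of chromosome 9 (plus strand).

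**Figure D2:**
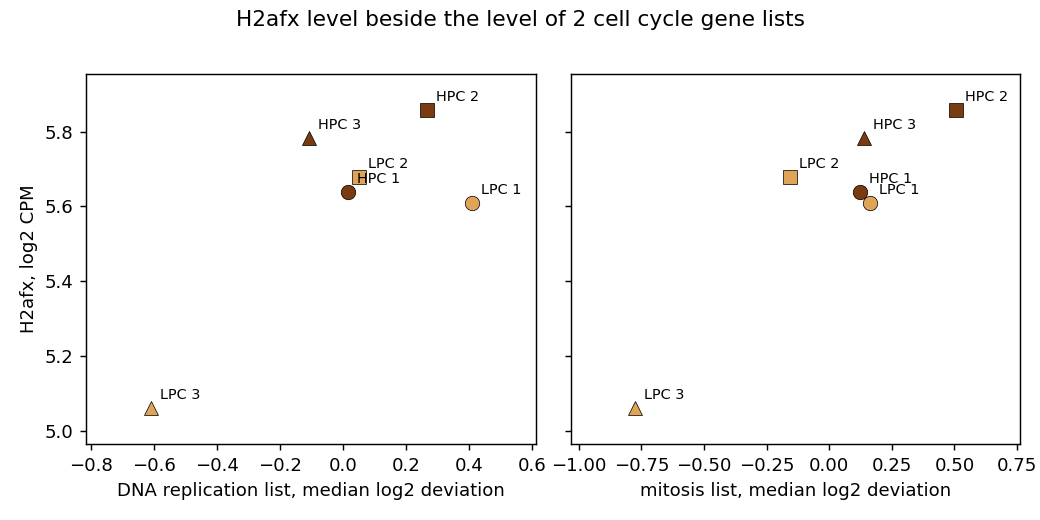
H2afx level in log2 CPM (y axis) against the median log2 deviation of the DNA replication list (22 genes, left) and the mitosis list (20 genes, right) from the mean of the 6 libraries, dark for HPC and light for LPC. LPC replicate 3 is lowest on all axes, at 33.3 CPM of H2afx, and the other 5 libraries lie between 48.8 and 58.0 CPM.

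H2afz and H2afv encode the 2 forms of H2A.Z, a variant placed at promoters of active and poised genes. H2afz levels, in replicate order, were 23.3, 19.2 and 10.7 CPM in the HPC libraries and 25.0, 20.97 and 11.5 CPM in the LPC libraries, with a log2 fold change of -0.11 (SE 0.34). H2afv levels were 60.2, 67.9 and 61.2 CPM for HPC and 59.4, 75.1 and 72.9 CPM for LPC, with a log2 fold change of -0.13 (SE 0.12). For both genes the groups overlapped. H2afv supplied 78.4% ± 6.54 of H2A.Z counts in HPC and 78.3% ± 7.98 in LPC. Some 23.9% of the 50-base windows at the 3' end of H2afz occur unchanged in 4 pseudogenes, against 0 for H2afv, so the H2afz level and this share are uncertain. H2afz lies at 137864487 to 137866922 of chromosome 3 (plus strand), and H2afv at 6427229 to 6444443 of chromosome 11 (minus strand).

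H2afy encodes macroH2A1, whose large extra domain makes it a variant of repressed chromatin. Levels, in replicate order, were 138, 130.3 and 110.3 CPM in the HPC libraries and 172, 151 and 124 CPM in the LPC libraries. Each HPC library was below the LPC library of its own number but the groups overlapped, with a log2 fold change of -0.24 (SE 0.15). The paralog H2afy2 had 2, 3 and 2 reads in HPC and 0 in each LPC library. These counts are near the limit of 3 reads, equal to 0.135 to 0.204 CPM, that a count of 0 allows. H2afy lies at 56073619 to 56136361 of chromosome 13 (minus strand) and overlaps the antisense gene Gm47071.

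H2afj encodes H2A.J, a variant that accumulates in senescent cells. Levels, in replicate order, were 91.5, 64.0 and 68.6 CPM in the HPC libraries and 71.2, 77.9 and 82.9 CPM in the LPC libraries. HPC replicate 1 was the highest library of all, and the other HPC libraries were the lowest. The log2 fold change was -0.05 (SE 0.15), and the 3 differences between equally numbered libraries were 0.36, -0.28 and -0.27. H2afj lies at 136808244 to 136810074 of chromosome 6 (plus strand), and 4.38% of its 3' windows occur in 2 pseudogenes.

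**Figure D3:**
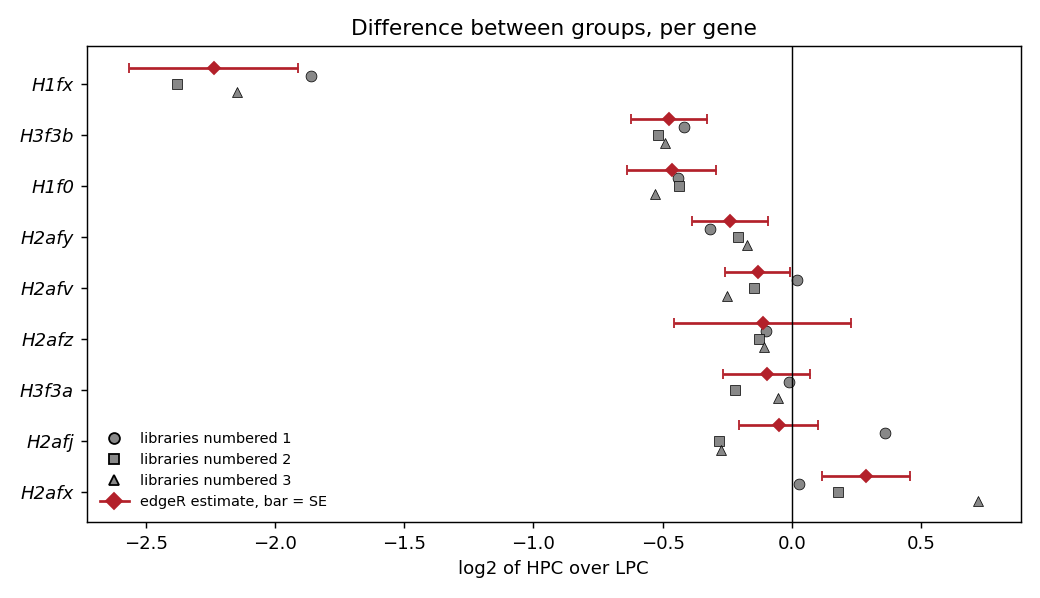
log2 of HPC over LPC (x axis) for the 9 genes, ordered by the edgeR estimate (red diamonds, bars ± 1 SE), with grey symbols for the differences between equally numbered libraries. H1fx stands farthest from 0 at -2.24, H3f3b and H1f0 lie near -0.48 and -0.46, and H2afx is the only gene right of 0 at 0.29.

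Across the 9 genes, 8 had negative log2 fold changes, as had 6175 of all 11921 tested genes. The median was -0.13, where the median of all tested genes was -0.01. The groups did not overlap for 3 genes, all lower in HPC, against 7.18% of all tested genes in that direction. All 3 differences between equally numbered libraries had one sign for 7 genes, against 40.9% of all tested genes. With edgeR on group alone no member was called at an adjusted p under 0.05, against 0.0419% of all tested genes, and 3 were lower at an unadjusted p under 0.05, against 4.31%. The same test called H1fx lower with no filter, without LPC replicate 1 and without LPC replicate 3, where 0.104%, 0.141% and 0.133% of genes were called lower. DESeq2 called H1fx, against 0.856% of tested genes called lower, and limma-voom called none, against 0.0419%. In the edgeR fit blocked on replicate number, H1fx, H1f0 and H3f3b were called lower, against 1.10% of tested genes. The log2 fold changes with the block were -2.22, -0.47 and -0.48. The shares for the blocked fits that follow count genes called in either direction. Without the libraries numbered 2 the blocked fit called no member (0.00% of all genes). Without those numbered 3 it called only H1fx (1.64%, or 196 genes, 66 of them lower). Without those numbered 1 it called these 3 with H2afx and H2afj, but also 24.5% of all genes. These fits kept just 1 residual degree of freedom. Because the members were picked on this contrast, none of these counts supports a difference of the set.

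The replicate number did not enter the choice of the genes, so levels between the 3 numbers could be tested, in the model with group and number. H2afz passed (edgeR quasi-likelihood test, adjusted p = 0.019), as 1 of the 9, against 3.18% of all tested genes. Its level in the libraries numbered 3, 10.7 and 11.5 CPM, was below the 19.2 to 25.0 CPM of the other 4, and the fitted level was 1.98-fold lower than in numbers 1 and 2 (log2 difference -0.99). This description of the number 3 was chosen after the values were seen. DESeq2's likelihood ratio test also called H2afz (adjusted p = 0.00015), and H1f0 as well (DESeq2 adjusted p = 0.022, edgeR 0.093), where it called 7.83% of all genes. The H2afz call ended without HPC replicate 2 (edgeR adjusted p = 0.098), HPC replicate 3 (0.082), LPC replicate 2 (0.115) or LPC replicate 3 (0.133), while the log2 difference with any 1 library left out stayed between -1.004 and -0.990. It held without HPC replicate 1 and without LPC replicate 1, fits that called 43.6% and 35.7% of all genes, and 7 and 6 of the 9 members. Of the 9 genes, 6 had an unadjusted p under 0.05 in this test, against 25.3% of all tested genes. The other members deviated less. H3f3a was highest in the number 3 in both groups, H3f3b and H2afy lowest there, and H1fx and H1f0 highest in the number 2 in both groups, and none of these passed with edgeR on all 6 libraries. Without HPC replicate 1 all 5 passed, and without LPC replicate 1 H1f0, H3f3b and H2afy did, in the fits just named that called so many genes. The labels do not say what a replicate number marks.

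**Figure D4:**
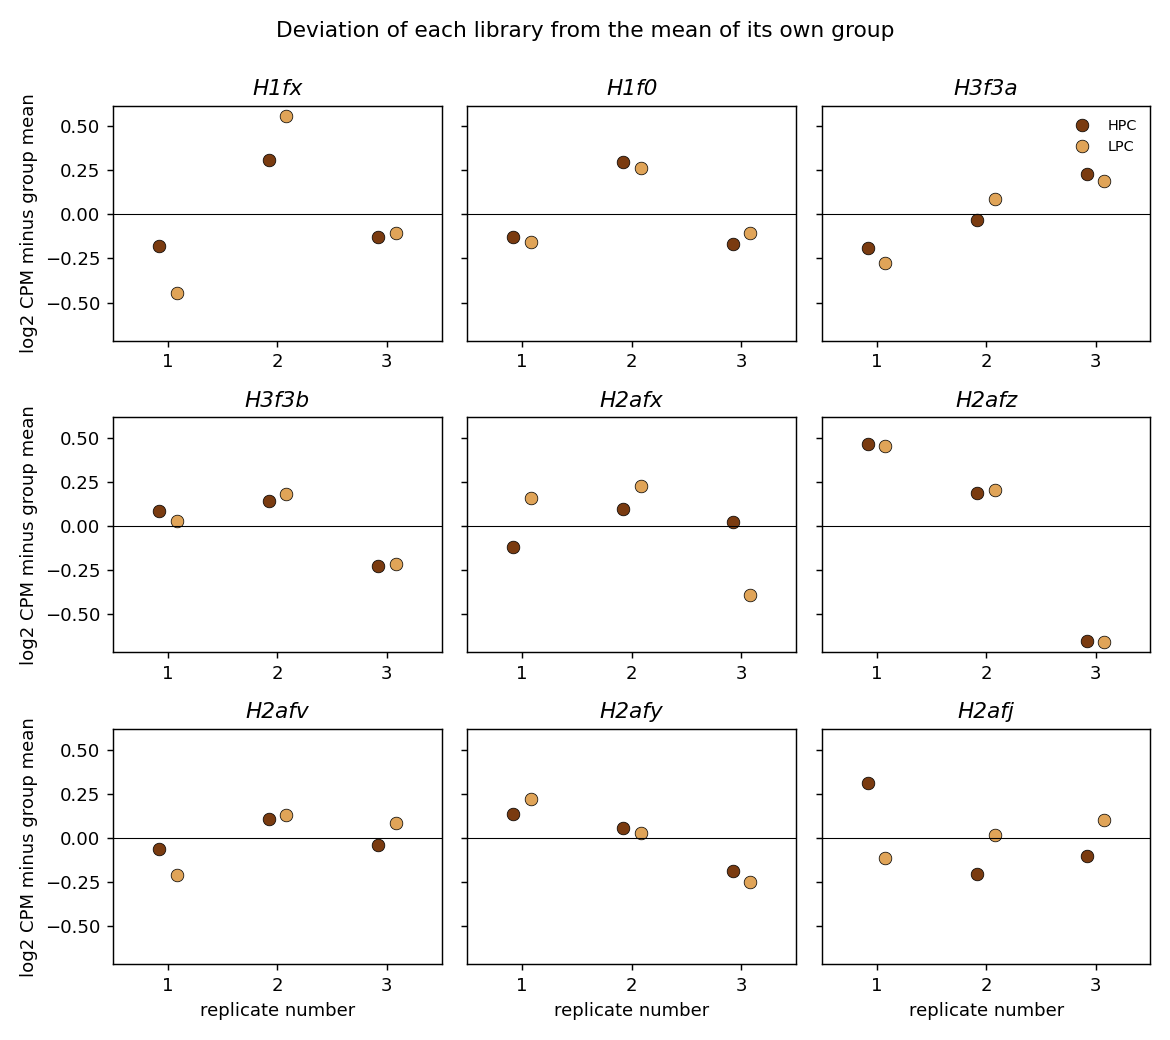
Deviation of each library's log2 CPM from the mean of its own group (y axis) by replicate number (x axis) for the 9 genes, dark for HPC and light for LPC. H2afz lies near -0.65 and -0.66 in replicate 3 of HPC and LPC, and for H1f0, H3f3a, H3f3b and H2afy the 2 groups also lie close together.

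The genes named Hist1 to Hist4, taken by name as S phase histone genes, gave few reads in these poly(A)-primed libraries. Of 68 such genes in the table, 27 had no read in any library, 47 had under 10 reads in all, and 8 were tested. Their summed level was 49.5 to 114 CPM, below that of the 9 members in every library. Of the 68, 41 have a match to the stem-loop pattern in an annotated transcript. Lack of a match does not show that the loop is absent. Among the tested, 3 had positive and 5 negative log2 fold changes, and the median was -0.24, and none passed with edgeR with or without the block. That median rested on single libraries, at 0.02 without HPC replicate 2, 0.0076 without HPC replicate 3, -0.10 without LPC replicate 2 and -0.56 without HPC replicate 1. Hist2h2be, an H2B gene of this list, has a poly(A) hexamer and no match to the stem-loop pattern in its annotated transcripts, unlike most of the 68. Its levels were 12.7, 9.88 and 12.9 CPM in the HPC libraries and 14.6, 16.4 and 21.4 CPM in the LPC libraries, without overlap (edgeR adjusted p = 0.44). Cenpa, which encodes the centromeric H3 variant, was at 95.0 ± 13.9 and 82.8 ± 14.99 CPM (edgeR adjusted p = 0.78).

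The genes that load, move or read these histones did not pass either. The 9 lists, with 117 tested genes, also hold the S phase histones, Cenpa and the cell cycle genes below. Of the 117, edgeR without the block, edgeR with it, DESeq2 and limma-voom each called 0. Over all 11921 tested genes these called 5, 301, 224 and 5. At an unadjusted p under 0.05 edgeR had 7 of the 117 higher and 2 lower, against 5.06% and 4.31% of all tested genes. Of the 7 higher, 6 were mitosis genes, and of the 2 lower, 1 was Hist2h2be. Of 7 H3.3 chaperone genes 4 had positive log2 fold changes, and the median was 0.07. They include Atrx, at 623 ± 41.8 CPM for HPC and 593 ± 117 CPM for LPC, and Ubn2, a subunit of the HIRA complex, at 175 ± 20.1 and 164 ± 33.7 CPM. Of 18 genes for loading and removal of H2A.Z and macroH2A 12 had negative log2 fold changes, and the median was -0.05. Their most abundant were Anp32e, which removes H2A.Z, at 286 ± 30.0 and 295 ± 56.7 CPM, and Ep400, a remodelling ATPase that loads it, at 146 ± 10.4 and 144 ± 22.4 CPM.

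The 15 general histone chaperones and FACT genes had a median of 0.03, with 9 positive. Npm1, the nucleolar histone chaperone, was at 436 ± 84.2 and 570.3 ± 82.4 CPM (edgeR adjusted p = 0.55 without and 0.080 with the block), and Mcm2 at 652 ± 97.7 and 647 ± 232 CPM. The 13 tested genes that phosphorylate, dephosphorylate or read H2A.X had a median of 0.04, with 9 positive. By its make-up this list mixes opposing activities. Baz1b, the H2A.X tyrosine kinase, was at 329 ± 29.1 and 291 ± 74.8 CPM, and Eya1, a phosphatase, at 184 ± 19.2 and 201 ± 20.4 CPM. Histone pre-mRNA 3' end processing had 13 genes with a median of 0.05, 8 of them positive. Sympk, a scaffold of the cleavage complex, was at 323 ± 8.74 and 331 ± 38.1 CPM, and Cpsf2 at 150.3 ± 11.5 and 142 ± 23.0 CPM.

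Of the cell cycle lists, 22 DNA replication genes had a median of 0.02, with Rrm2 at 471 ± 70.7 and 336 ± 116 CPM and Mcm6 at 340.2 ± 52.8 and 347 ± 125 CPM. For mitosis, 19 of 20 genes had positive log2 fold changes, against 5746 of all 11921 tested genes. The median was 0.46, and 6 were higher at an unadjusted p under 0.05 (edgeR), against 5.06% of all tested genes. Leaving out LPC replicate 3 brought the mitosis median to 0.23, and leaving out LPC replicate 1 brought it to 0.68. Top2a was at 962 ± 188 and 607 ± 243 CPM (edgeR adjusted p = 0.52), and Mki67 at 744 ± 115 and 603 ± 235 CPM. The median difference of the mitosis list between equally numbered libraries was -0.09, 0.64 and 0.92 for numbers 1, 2 and 3, whereas that of H2afx was 0.03, 0.18 and 0.72.

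The 3 most similar genes were sought for H1fx, H2afz and H3f3b among 9879 other genes with a mean of at least 5 CPM, by Pearson's r of log2 CPM over the 6 libraries. For H1fx they were Imp3, of the small ribosomal subunit processome (r = 0.99), Lmo1, a LIM domain transcription cofactor (0.99), and Ilk, an integrin-linked kinase gene (0.98). Their means in HPC and LPC were 41.4 and 57.1 CPM, 32.3 and 53.9 CPM, and 97.1 and 126 CPM. For H3f3b they were Isyna1, for inositol synthesis, Actb, the cytoplasmic actin gene, and Serpinh1, a collagen chaperone gene, with r from 0.99 to 1.00. For H2afz they were Tmem183a, Gtf2h3, of the general factor TFIIH, and Timm17a, of the mitochondrial import channel, with r from 0.99 to 1.00. With only 6 libraries and so many candidates high values are common: 42, 62 and 103 genes exceeded 0.95 for H1fx, H3f3b and H2afz.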

How the data were processed

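RNA of sorted B16-F3 cells went into QuantSeq 3' FWD libraries, sequenced on a NextSeq 500, per the labels' protocols. STAR and GRCm38 are named in the submitters' processing notes. How reads were counted, on which annotation, with or without strand and molecular identifiers, is not given in the sources used here. For each gene the authors deposited a raw count, with 1 column for each of the 6 libraries, matched to samples by column name.

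Genes were filtered with filterByExpr, scaled with TMM factors and tested with the quasi-likelihood F-test of edgeR (version 4.0.16, R 4.3.3) on group alone, with 4 residual degrees of freedom. Calls use Benjamini-Hochberg adjusted p under 0.05 over all tested genes. CPM was computed from the counts with TMM factors, and standard errors from the F statistic. Log2 values per library use a prior count of 2. Similar genes were ranked by Pearson's r.

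Same-numbered libraries deviated together from their group means, with correlations across genes of 0.42, 0.35 and 0.65, all above the minimum of 0.1, so a second fit blocked on that number (2 residual degrees of freedom) is given where it changes a call. Of the pairs with unequal numbers, HPC replicate 2 with LPC replicate 1 was also above the minimum, at 0.20. The others were negative, from -0.59 to -0.05. Deviations from a mean of 3 libraries are not independent of each other. The pairing comes from the data, not the labels, and is weak evidence.

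The members, lists and tests were chosen with earlier results of these data known. The named genes are the 9 members, the genes of each list that passed or else its 2 most abundant, and the 3 genes most similar to H1fx, H2afz and H3f3b. Placeholder symbols of the Gm and Rik kinds were left out of the similar genes. Gene models and transcripts are GENCODE M21, which holds 21842 of the table's 22740 identifiers (96.1%), each with a matching chromosome. Promoters are RefSeq's on GRCm38.p6. Alternatives were other scalings, no filter, DESeq2 1.42.0, limma-voom (limma 3.58.1), the block and leaving out libraries.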

Additional observations from a re-analysis of the deposited data

How the results depend on the processing

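The number of genes called between HPC and LPC was 5 with edgeR on group alone, 4 with RLE, 6 with upper quartile and 5 with library size scaling, and 5 with limma-voom. It moved to 301 with the replicate block, 28 with no filter and 224 with DESeq2. Leaving out 1 library gave 0 to 43 calls, and the replicate block without 1 pair of libraries gave 0, 196 and 2947. The number called between replicate numbers was 379, and it was 1029 with no filter, 933 with DESeq2's likelihood ratio test and between 0 and 5266 when 1 library was left out, fits that keep 1 residual degree of freedom. The log2 fold changes of H1fx, H1f0, H3f3b, H2afx, H2afv and H2afy kept their sign under all 16 alternatives, and with 1 library left out that of H1fx lay between -2.44 and -1.89 and that of H3f3b between -0.57 and -0.37. H1f0 ran from -0.63 to -0.31 (without LPC replicate 2), H2afy from -0.35 to -0.12 (without LPC replicate 1), H2afv from -0.23 to -0.06 (the extremes being without LPC replicate 1 and LPC replicate 2) and H2afx from 0.12 to 0.41. Those of the other 3 members reversed when 1 library was left out. H3f3a ran from -0.22 to 0.0022 and was positive without HPC replicate 1. H2afz ran from -0.37 to 0.15 and was positive without HPC replicate 3 and without LPC replicate 1 (0.12). H2afj ran from -0.21 to 0.050 and was positive without HPC replicate 2, HPC replicate 3 (0.0080) or LPC replicate 3 (0.0023). Under the block, H2afj reversed to 0.044 and 0.039 without the libraries numbered 2 and 3. Of the 9 list medians, 6 changed sign when 1 library was left out. The exceptions were mitosis, the genes that phosphorylate, dephosphorylate or read H2A.X and the 1 tested variant gene Cenpa. Besides the S phase histones, the lists that changed sign were DNA replication (-0.17), general chaperones and FACT (-0.08) and 3' end processing (-0.10) without LPC replicate 3, with sign changes also without HPC replicate 2 alone. H2A.Z and macroH2A loading turned positive without HPC replicate 3 (0.03) or LPC replicate 1 (0.0035), and the H3.3 chaperones negative without LPC replicate 2 (-0.01). The cause was not tested. For the members and lists the fits with the block and without 1 pair, and for H2afz between replicate numbers the other scalings, filter and left-out libraries, were added after the data were seen. Depth limits H1fx most, at 27 to 222 reads per library.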
